A study of Sus scrofa with 36 samples.

Results

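Cytokine, chemokine, TNF and Toll-like receptor genes were described in the hippocampus of 36 piglets. The members were the genes whose single annotated symbol starts with IL followed by a digit, CCL, CCR followed by a digit, CXCL, CXCR, TNF, or TLR followed by a digit. That rule found 76 genes with 94 probe sets among 6765 genes with 1 symbol, and a gene with several probe sets is given by the one with the highest mean over the 36 arrays. Probe sets of low signal were kept. The 76 comprised 19 chemokines, 7 chemokine receptors, 18 interleukins, 13 interleukin receptors and binding proteins, 4 TNF ligands, 5 TNF receptors, 4 TNF-induced proteins and 6 Toll-like receptors.

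The animals were male domestic piglets, a Landrace×Large White cross, and hippocampal RNA was hybridised to Affymetrix porcine arrays, 1 array per piglet. All groups drank pig milk replacer from postnatal day 3, and tissue was taken at day 38. The control group (n = 12) received the replacer with its basal level of lactoferrin, an iron-binding milk glycoprotein, whose amount is not given in the sources used here. The medium-dose group (n = 12) received 0.6 g/L lactoferrin and the high-dose group (n = 12) 1.2 g/L. The study asked how lactoferrin bears on early brain development and cognition. Each sample also carries 1 of 5 set codes, S1 to S5 (4, 10, 8, 9 and 5 arrays), whose meaning is not given. S1 holds no medium-dose animal.

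Cytokines are secreted proteins through which cells signal infection, injury and growth. Chemokines are the branch that guides migrating cells through G-protein-coupled receptors, and TNF ligands act through trimeric receptors that can lead to NF-kB activation or to cell death. Toll-like receptors sense microbial molecules and drive cytokine transcription. In healthy brain most inflammatory cytokines are scarce, microglia carry most of the sensing receptors, and a few ligands such as IL34, CXCL12 and CXCL14 are made constitutively.

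Signals are log2 values, and a difference between groups is a log2 difference. Signals of different probe sets do not rank the amounts of their transcripts, so a level is read against the spread of all probe sets only. Array medians lay between 6.6 and 6.7. The array least like the rest, high-dose replicate 2, correlated at a mean r of 0.980 with the others. The arrays were not alike in 1 array control: the Dap spike-in exceeded 6 in 26 arrays and did not in 10. A second block for its presence was among the alternatives run. Checked against marker lists of the labelled tissue, oligodendrocyte markers averaged 11.5, astrocyte markers 11.2 and neuron markers 10.6. Microglia markers averaged 7.51 (12 of 19 listed genes measured), T and NK cell markers 4.85 (8 of 11), B and plasma cell markers 4.45 (2 of 6) and neutrophil markers 4.23 (3 of 6). The RNA comes from whole tissue, in which fewer cells of a type and less RNA per cell cannot be told apart.

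Most members were dim. Of the 76, 44 had a mean at or above the 25th percentile of all probe sets (4.92), 15 reached the 50th percentile (6.61) and 5 the 75th (8.18). All 5 TNF receptors and all 4 TNF ligands were at or above the 25th percentile, against 5 of 18 interleukins, 8 of 13 interleukin receptors and binding proteins, 13 of 19 chemokines, 4 of 7 chemokine receptors, 3 of 6 Toll-like receptors and 2 of 4 TNF-induced proteins. The 10 members of highest mean were 2 ligands (CXCL14 and IL34), 5 receptors and 3 regulators.

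**Figure D1:**
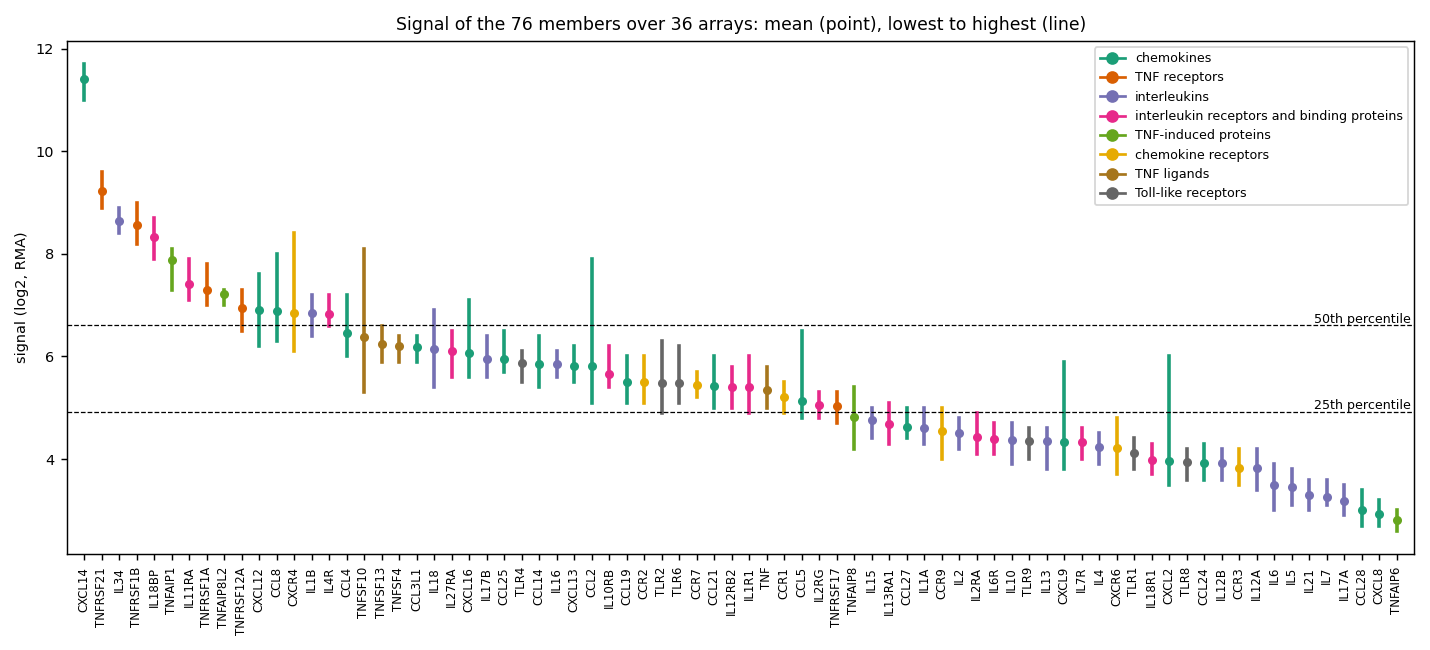
Signal of each of the 76 members (log2, RMA) over 36 arrays, ordered by mean and coloured by family. Points are means, lines run from the lowest to the highest array, and dashed lines mark the 25th and 50th percentiles of all probe sets. Most members lie in a narrow band, while TNFSF10, CCL2, CXCL2, CXCR4, CXCL9, CCL8 and CCL5 span the widest ranges.

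Among the ligands, CXCL14, a chemokine with constitutive expression in many tissues, had the highest signal, 11.41 ± 0.20 (SD, n = 36). Its values ran from 11.1 over a median of 11.4 to 11.6 in controls, from 11 over 11.5 to 11.7 at the medium dose and from 11.1 over 11.5 to 11.7 at the high dose, and the 3 groups overlapped. Its other probe set followed it closely across arrays (r = 0.94, a description). IL34, which supports microglia through the receptor CSF1R, averaged 8.64 ± 0.12, and its lowest, median and highest values were 8.4, 8.6 and 8.8 in controls, 8.5, 8.7 and 8.9 at the medium dose and 8.5, 8.6 and 8.9 at the high dose. IL34 was among the steadier probe sets of the array, with an SD at the 10.3 percentile of all SDs. CXCL12, which acts on CXCR4 to place and retain cells, averaged 6.91 ± 0.31.

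The receptors and regulators of high signal were not all as steady as IL34. Their SDs lay between the 1.01 (TNFAIP8L2) and the 67.5 (IL18BP) percentile of all SDs. TNFRSF21, a death receptor of neurons and glia, averaged 9.22 ± 0.15 (SD, n = 36), and TNFRSF1B, the TNF receptor of microglia and other myeloid cells, 8.57 ± 0.18. TNFRSF1A, the widely expressed TNF receptor, averaged 7.30 ± 0.18, and TNFRSF12A, the receptor of the ligand TWEAK, 6.95 ± 0.15. IL18BP, a secreted protein that neutralises interleukin 18, averaged 8.33 ± 0.20. The remaining members of this rank were IL11RA (7.42 ± 0.16), the receptor chain of interleukin 11, TNFAIP1 (7.88 ± 0.15), an adaptor of a ubiquitin ligase, and TNFAIP8L2 (7.21 ± 0.09), a brake on innate immune signalling. TNFAIP8L2 had one of the smallest spreads on the array (SD at the 1.01 percentile). Its second probe set averaged 5.23 and did not follow the first across arrays (r = -0.15).

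CXCL8, IL6, IL10 and IL1A were dim in every group. CXCL8, the main neutrophil chemokine, averaged 2.93 ± 0.13 (SD, n = 36), at the 1.36 percentile of probe set means, and no array exceeded 3.2. IL6, the acute-phase cytokine, averaged 3.49 ± 0.17, and its highest array was 3.9. IL10, an anti-inflammatory cytokine, averaged 4.36 ± 0.16, and IL1A, an alarmin, 4.61 ± 0.15, both under the 25th percentile. TNF itself averaged 5.34 ± 0.17 and ran from 5.0 to 5.8, above that percentile. No array exceeded 5.0 for CXCL8, IL6, IL10 or IL1A.

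IL1B, the processed interleukin released by activated microglia, had a signal of 6.85 ± 0.19 (SD, n = 36) on its brighter probe set and 4.31 on the other, and the 2 did not follow each other across arrays (r = -0.02). The level of IL1B depends on the probe set that is read. IL18, the other inflammasome product, averaged 6.15 ± 0.34, with controls from 5.4 over a median of 6.05 to 6.9, the medium dose from 5.8 over 6.05 to 6.7 and the high dose from 5.8 over 6.25 to 6.5. Control piglets held both the lowest and the highest IL18 values.

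Toll-like receptors were of low signal. TLR4, the lipopolysaccharide receptor, averaged 5.86 ± 0.13 (SD, n = 36) on the brightest of its 5 probe sets, whose other sets averaged between 3.57 and 5.27. TLR2, the receptor for bacterial lipoproteins, averaged 5.49 ± 0.33, and its partners TLR6 and TLR1 averaged 5.49 ± 0.22 and 4.11 ± 0.14. TLR8 and TLR9, which sense nucleic acids inside endosomes, averaged 3.94 ± 0.14 and 4.34 ± 0.13. Of this family only TLR2 was among the 10 members of largest spread. IL1R1, the signalling receptor of interleukin 1, averaged 5.41 ± 0.25 and IL6R, the receptor of interleukin 6, 4.39 ± 0.15. IL33, CXCL10, TLR3, TLR7, IL6ST and TNFAIP3 were not analysed here.

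No member passed the test of any feeding comparison. The 3 feeding comparisons were fitted with limma over all 23999 probe sets with the set code as a block, and p-values were adjusted by Benjamini-Hochberg. In each comparison 0 of 76 members passed an adjusted p of 0.05, beside 0 of 23999 probe sets (0%). The smallest adjusted p of a member was 0.707 for medium dose minus control, 0.853 for high dose minus control and 0.838 for high minus medium dose. The p-values measure the spread between these piglets, whose litters are not given. The median half-width of the members' 95% intervals was 0.14 in each comparison, which is the precision that 12 piglets per group gave for a typical member.

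At an unadjusted p of 0.05, 4 of 76 members differed between medium dose and control, 3 higher and 1 lower, beside 6.43% of all probe sets (3.67% higher and 2.76% lower). TNFSF10, a death ligand of the TNF family that interferon induces, had 5.5, 6.3 and 7.8 as its lowest, median and highest values in controls and 5.5, 5.85 and 7.6 at the medium dose. The difference, the largest of any member, was -0.65 (SE 0.25, p = 0.0150, adjusted p = 0.707), with 8 of 12 medium-dose piglets below the control median. The ranges overlapped, and 5 of 12 controls but 1 of 12 medium-dose piglets exceeded 7.0, a level chosen after the values were seen. By set code the difference was -0.40 (S2), -0.83 (S3), -1.40 (S4) and 0.45 (S5), and limma's F test of a difference between them gave p = 0.125 (adjusted p = 0.780). The mean of 28 interferon-stimulated genes was 7.62 ± 0.67 (SD, n = 12) in controls, 7.15 ± 0.42 at the medium dose and 7.42 ± 0.66 at the high dose. With that mean as a covariate, added after seeing the data, the TNFSF10 difference was -0.05 (adjusted p = 0.982, and at least 0.224 over its alternatives).

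CXCL12 ran from 6.4 over a median of 6.9 to 7.4 in controls and from 6.6 over 7.05 to 7.3 at the medium dose. It was 0.24 higher at the medium dose (SE 0.10, p = 0.0214, adjusted p = 0.726), and 8 of 12 medium-dose piglets lay above the control median. Without the block for set code the difference was 0.16. The second probe set of CXCL12 gave 0.29 (p = 0.164) and followed the first weakly across arrays (r = 0.36, a description). IL21, a cytokine of helper T cells, differed by 0.13 (SE 0.05, p = 0.0191, adjusted p = 0.726), and IL7, a survival factor of lymphocytes, by 0.11 (SE 0.05, p = 0.0469, adjusted p = 0.770). The IL21 and IL7 probe sets were among the dimmest of the array, at 3.31 and 3.25 on average, and the deposited values move in steps of 0.1.

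The next 6 members by p did not reach an unadjusted p of 0.05. TNFRSF1A was at -0.14 (p = 0.0669), TLR2 at -0.22 (p = 0.0892) and CCL8, a monocyte chemokine, at -0.24 (p = 0.120), all lower at the medium dose. IL17B was at 0.13 (p = 0.0731), IL6 at 0.12 (p = 0.112) and IL2RA, the alpha chain of the interleukin 2 receptor, at 0.13 (p = 0.113). For TLR2, 11 of 12 medium-dose piglets lay below the control median of 5.65, and the controls spread from 4.9 to 6.3 against 5.0 to 5.7 at the medium dose. CCL8 ran from 6.4 over 6.9 to 8.0 in controls and from 6.3 over 6.7 to 7.3 at the medium dose, and its difference was 0.02 with the interferon mean as a covariate. Microglia markers averaged 7.61 ± 0.24 in controls, 7.45 ± 0.16 at the medium dose and 7.47 ± 0.11 at the high dose (SD, n = 12 each). With their mean as a covariate the differences were -0.42 for TNFSF10, -0.03 for TLR2, -0.03 for CCL8 and 0.24 for CXCL12. With the interferon mean as one, those of TLR2 and CXCL12 were -0.13 and 0.17. None passed with either covariate, and the part of either list mean in these differences was not tested. Across all members 40 of 76 differences were above 0, with a median of 0.01, beside 51.9% and a median of 0.00 over all probe sets.

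**Figure D2:**
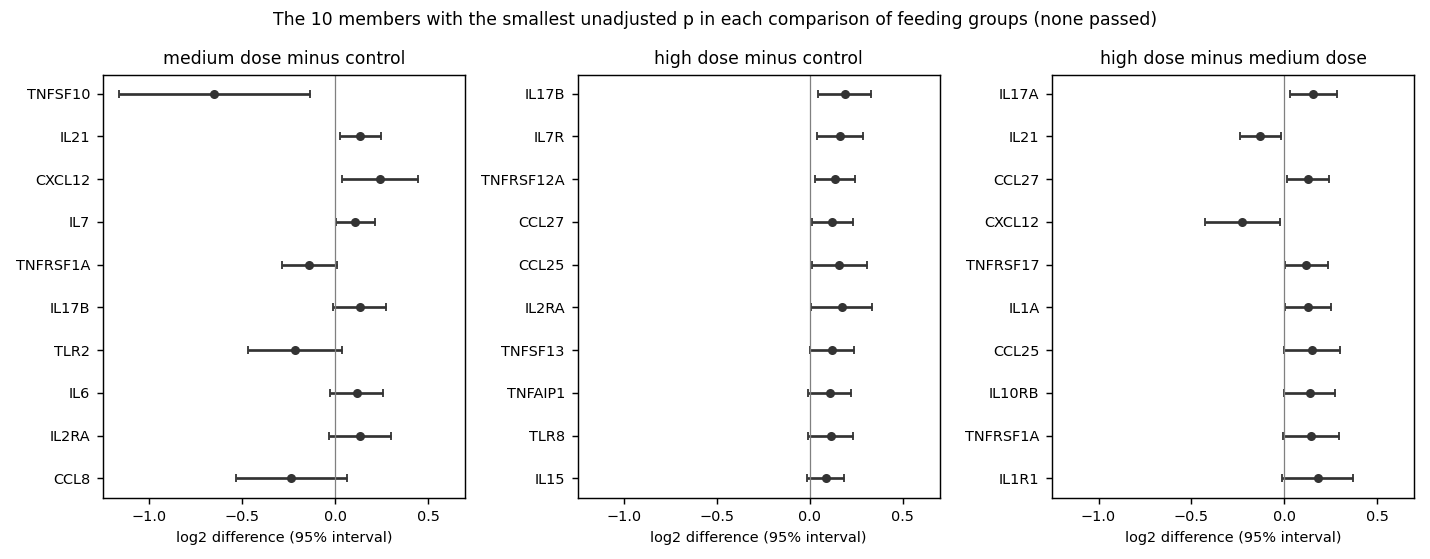
Log2 differences (points) with 95% intervals from limma for the 10 members of smallest unadjusted p in each comparison of feeding groups, 12 piglets per group. No member passed after adjustment. TNFSF10 had the largest difference at the medium dose, -0.65, and the widest interval.

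At the high dose, 7 of 76 members differed from control at an unadjusted p of 0.05, all higher, beside 5.63% of all probe sets (3.71% higher and 1.92% lower). IL17B, an interleukin 17 family member, ran from 5.6 over a median of 5.9 to 6.1 in controls and from 5.8 over 6.05 to 6.3 at the high dose, a difference of 0.19 (SE 0.07, p = 0.0109, adjusted p = 0.853). Its 2 other probe sets differed by -0.01 and 0.05, so the 3 probe sets did not give 1 answer. IL7R, the interleukin 7 receptor, ran from 4.0 over 4.3 to 4.4 in controls and from 4.2 over 4.4 to 4.6 at the high dose, a difference of 0.16 (SE 0.06, p = 0.0117, adjusted p = 0.853). TNFRSF12A differed by 0.13 (SE 0.05, p = 0.0172, adjusted p = 0.875), with 7 of 12 high-dose piglets above the control median and 2 below it. Its second probe set gave -0.04 (p = 0.652).

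CCL25, the chemokine of gut and thymus, ran from 5.7 over 5.85 to 6.2 in controls and from 5.8 over 6.0 to 6.5 at the high dose, and 11 of 12 high-dose piglets lay above the control median. Its difference was 0.16 (p = 0.0349), and those of CCL27, a chemokine of skin, IL2RA, and TNFSF13, a B cell survival ligand, were 0.12 (p = 0.0335), 0.17 (p = 0.0409) and 0.12 (p = 0.0469), all at an adjusted p of 0.879. TNFAIP1 (0.11, p = 0.0666), TLR8 (0.11, p = 0.0686) and IL15, a cytokine of NK cells (0.08, p = 0.0966) followed without reaching that threshold. Groups overlapped for each of these 10 members. The second probe set of TNFSF13, with a mean of 6.03, differed by -0.004 (p = 0.962). It followed the first weakly across arrays (r = 0.12). TNFSF10 was at -0.20 (SE 0.25, p = 0.432) at the high dose, where 4 of 12 piglets exceeded 7.0.

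Of the 76 differences between high dose and control, 56 lay above 0, with a median difference of 0.04, beside 54.4% and a median of 0.01 over all probe sets. Among the 44 members at or above the 25th percentile 33 lay above 0 (49.7% of such probe sets), and among the 32 dimmer ones 23 did (68.5% of such probe sets). The count moved with scaling: 47 of 76 after quantile normalisation on top, 56 after centring each array on its median and 51 with no block for the set code. The deposited values move in steps of 0.1, above that median.

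Between the doses, 6 of 76 members differed at an unadjusted p of 0.05, 4 higher and 2 lower at the high dose, beside 5.79% of all probe sets (2.82% higher and 2.97% lower). IL17A, a cytokine of T helper cells, was 0.16 higher (SE 0.06, p = 0.0168, adjusted p = 0.838) at a mean of 3.18, the 3.73 percentile of probe set means. CXCL12 differed by -0.23 (SE 0.10, p = 0.0301, adjusted p = 0.838), with values from 6.2 over 6.8 to 7.6 at the high dose. IL21 was at -0.13 (p = 0.0240), CCL27 at 0.13 (p = 0.0283), TNFRSF17, the plasma cell receptor BCMA, at 0.12 (p = 0.0439) and IL1A at 0.13 (p = 0.0474). CCL25 (0.15, p = 0.0508), IL10RB (0.14, p = 0.0526), TNFRSF1A (0.14, p = 0.0590) and IL1R1 (0.18, p = 0.0647) came next. In all, 55 of 76 differences lay above 0, beside 53.3% of all probe sets, and the count was 49 after quantile normalisation, 61 after centring and 52 with no block. Each group enters 2 of the 3 comparisons, so they are not independent.

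CXCR4, the receptor of CXCL12, differed by 0.14 (SE 0.17, p = 0.407) between medium dose and control and by 0.08 (SE 0.17, p = 0.637) between high dose and control. Of the inflammatory core, IL1B differed from control by -0.01 (SE 0.08) at the medium and 0.02 (SE 0.08) at the high dose, TNF by 0.06 and 0.07 (SE 0.08 each), and IL18 by 0.02 and 0.11 (SE 0.14 each). TLR4 differed by 0.03 and 0.04 (SE 0.06 each) on its brightest probe set. Its other probe sets ran from -0.08 to 0.06 at the medium dose and from -0.04 to 0.11 at the high dose, none passing. IL34 differed by 0.07 and 0.05 (SE 0.05 each).

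Across set codes 1 member passed, TNFSF10. By limma's F test across S1 to S5, with feeding group in the model, it had an adjusted p of 0.0309, as 1 of 76 members beside 1.69% of all probe sets (405 of 23999). At an unadjusted p of 0.05 the share of members, 11 of 76, was also near the background of 15.3%. TNFSF10 averaged 6.10 ± 0.22 (SD, n = 4) in S1, 5.86 ± 0.58 (n = 10) in S2, 6.00 ± 0.61 (n = 8) in S3, 7.11 ± 0.84 (n = 9) in S4 and 6.92 ± 0.92 (n = 5) in S5. The largest fitted difference between set codes was 1.19. The interferon mean by set code was 7.23, 7.03, 7.04, 7.90 and 7.94 from S1 to S5.

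Within S4 and S5 the TNFSF10 values spread widely. S4 ran from 6.1 over a median of 7.4 to 8.1, and S5 from 5.5 over 7.1 to 7.8. S2 reached 7.3 in 1 array, high-dose replicate 6, and S3 reached 7.4 in 1 array, control replicate 6, while the medians there were 5.7 and 5.8. In S4 all 3 controls (7.4 to 7.8) lay above all 3 medium-dose piglets (6.1 to 6.4). TNFSF10 had the largest SD of all members, 0.85, at the 99.8 percentile of all probe sets.

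The TNFSF10 call was not held under every change of the samples. It was kept in 30 of 36 fits that left out 1 array, with adjusted p between 0.00185 and 0.0704. Leaving out control replicate 1, 2 or 9, high-dose replicate 10 or 11, or medium-dose replicate 12 ended it (adjusted p = 0.0602, 0.0557, 0.0529, 0.0638, 0.0704 and 0.0526). It also ended without set code S1, S2, S3 or S4 (adjusted p = 0.0987, 0.0705, 0.0619 and 0.313). With the microglia marker mean as a covariate the largest difference between set codes was 1.07 (adjusted p = 0.114), and with the interferon list mean as one it was 0.24 (adjusted p = 0.861). Over the 14 alternatives other than single arrays its adjusted p ran from 0.0133 to 0.861.

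**Figure D3:**
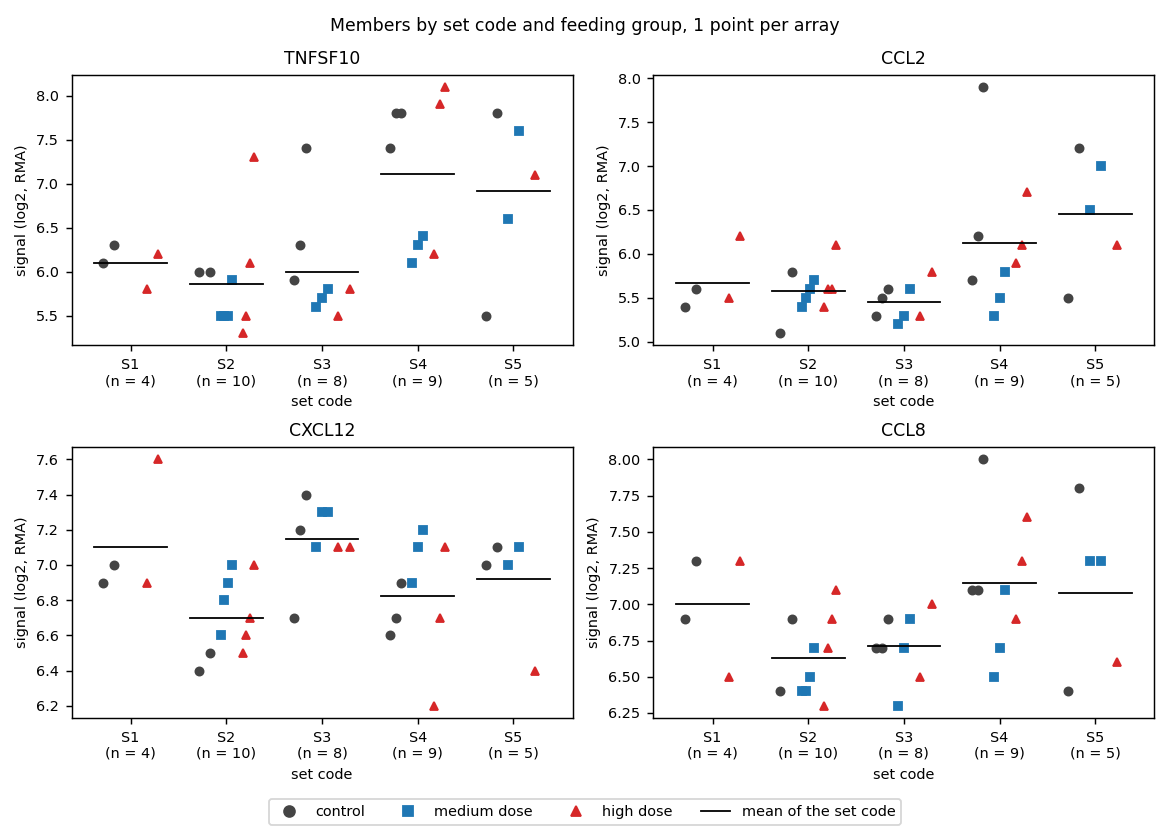
Signal (log2, RMA) of TNFSF10, CCL2, CXCL12 and CCL8 by set code, 1 point per array, with shape and colour for the feeding group and a line at the mean of each set code. TNFSF10 is high in 5 of 9 arrays of S4 and 3 of 5 of S5, and in 1 array each of S2 and S3.

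The other members of smallest p across set codes did not pass. CXCL12 (adjusted p = 0.0639) was lowest in S2, 6.7 ± 0.22 (SD, n = 10), and highest in S3, 7.15 ± 0.21 (n = 8). Its second probe set had an adjusted p of 0.622 by the same F test. CCL2, the main monocyte chemokine, averaged 6.12 ± 0.78 (n = 9) in S4 and 6.46 ± 0.69 (n = 5) in S5 against 5.45 to 5.67 in the other set codes (adjusted p = 0.0845). IL27RA, the interleukin 27 receptor, was lowest in S1, 5.85 ± 0.26 (n = 4), against 6.08 to 6.24 elsewhere (adjusted p = 0.101). CXCR6, the receptor of CXCL16, was also lowest in S1, 3.88 ± 0.13 (adjusted p = 0.140). CCL8 (adjusted p = 0.245), TNFRSF12A (0.294), IL15 (0.296), TLR1 (0.303), IL2 (0.307) and CCL4 (0.322) completed the 11 members at an unadjusted p of 0.05.

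Array weights, a filter, or the omission of S5 or of single arrays moved some of these past the threshold. By the same F test CXCL12 was called with a filter at the 50th percentile (adjusted p = 0.0479), which TNFSF10 did not reach. It was also called without S5 (adjusted p = 0.0356). With array weights TNFSF10, CXCL12, CCL2 and IL27RA were all called (adjusted p = 0.0133, 0.0295, 0.0383 and 0.0394). Over the alternatives other than single arrays the adjusted p of CXCL12 ran from 0.0295 to 0.426, that of CCL2 from 0.0383 to 0.856 and that of IL27RA from 0.0394 to 0.4998. CXCL12 was called in 5 of 36 fits without 1 array, CCL2 in 2 and IL27RA in 1. Without control replicate 12, whose TNFSF10 and CCL2 values (5.5 and 5.5) were the lowest of S5, CCL2 passed at an adjusted p of 0.0155.

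Interferon-stimulated genes, which cells switch on after sensing virus or nucleic acid, moved with TNFSF10 across arrays. The mean of 28 measured genes of a list of 45 ran from 6.75 to 8.73 and left a gap between 7.60 and 8.11, with 28 arrays below and 8 above. The 8 comprised 5 arrays of S4 and 3 of S5, and 4 controls, 1 medium-dose and 3 high-dose piglets. The list holds none of the 76 members. Because arrays fell into separate clusters, relations are given within each cluster. They were part of 228 relations of the 76 members to list means, adjusted together.

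TNFSF10 ran from 5.3 over a median of 5.95 to 7.4 in the 28 arrays below the gap and from 7.1 over 7.8 to 8.1 in the 8 above it. Below the gap it followed the interferon mean (r = 0.74, permutation p = 1e-05, the smallest that the resamples can give, adjusted p = 0.00114; rho = 0.77, permutation p = 1e-05). Without the 2 arrays farthest from the median r was 0.66, within S2 0.87 (10 arrays) and within S3 0.87 (8 arrays). Among the 8 arrays above the gap r was 0.77 (exact permutation p = 0.0205, adjusted p = 0.234; rho = 0.74, exact permutation p = 0.0430), and 0.39 without the 2 farthest. The relation therefore passed in the lower cluster, and in the upper cluster it did not pass after adjustment.

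CCL8 also followed the interferon mean below the gap (r = 0.66, permutation p = 2.4e-04, adjusted p = 0.00847; rho = 0.56, permutation p = 0.00234, n = 28). Within S2 r was 0.69 and within S3 0.06, and without the 2 farthest arrays r was 0.55 and no longer passed (adjusted p = 0.151). CCL2 had r = 0.58 (permutation p = 0.00126, adjusted p = 0.0261; rho = 0.36, permutation p = 0.0617). Without medium-dose replicate 12 and high-dose replicate 6 r was 0.31 and no longer passed (adjusted p = 0.608). Within S2 the r of CCL2 was 0.59, within S3 0.10 and on residuals after group and set code 0.66 (permutation p = 1.4e-04, adjusted p = 0.00355). An absolute r of 0.5 or more with the interferon mean below the gap was reached by 4 of 76 members (5.26%), beside 3.92% of all probe sets. CXCL9, a T cell chemokine induced by interferon gamma, had r = 0.52 (permutation p = 0.00334, adjusted p = 0.0508; rho = 0.52, permutation p = 0.00489) and did not pass. Above the gap 0 members passed (3 at an unadjusted p of 0.05), and the largest correlations were those of CCR3, an eosinophil chemokine receptor (r = 0.87, rho = 0.89, exact permutation p = 0.00417 and 0.00536, adjusted p = 0.0594 for r), and CCL14, a plasma chemokine (r = -0.81, rho = -0.86, exact permutation p = 0.0116 and 0.00848, adjusted p = 0.155 for r).

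**Figure D4:**
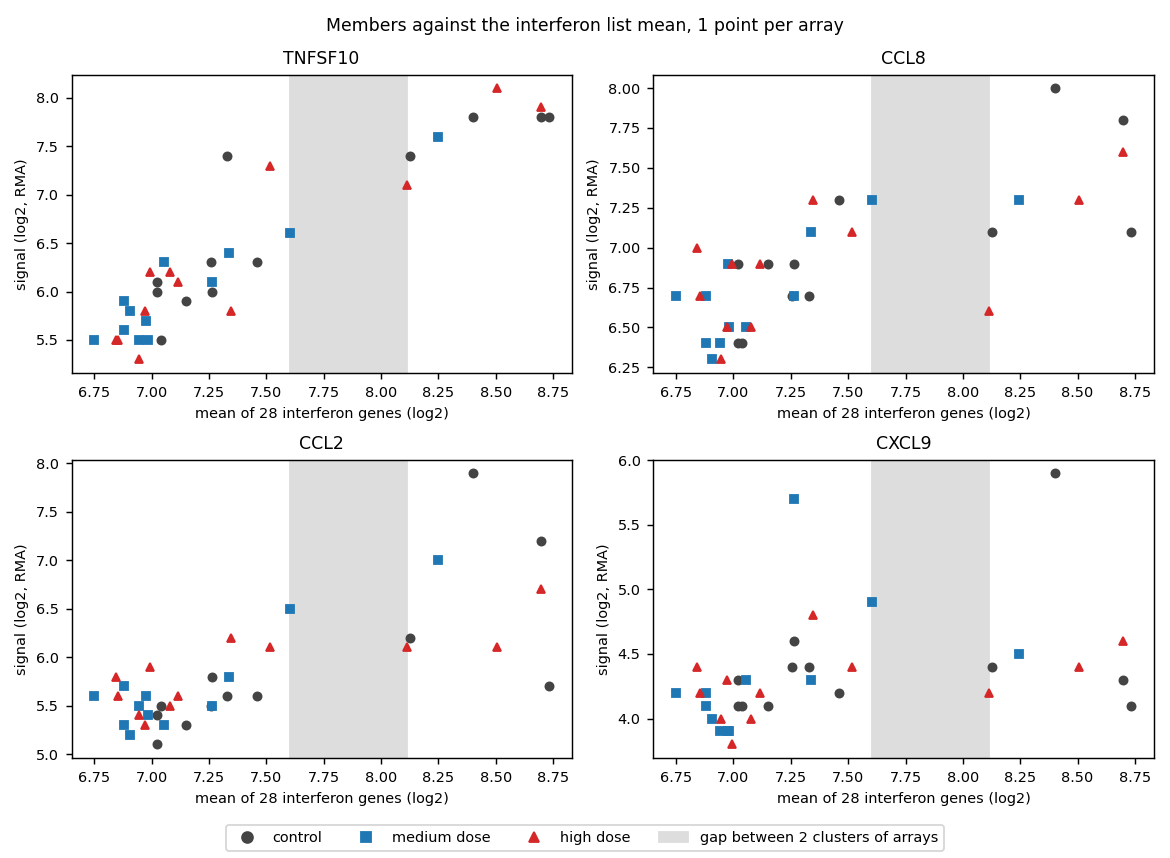
Signal (log2, RMA) of TNFSF10, CCL8, CCL2 and CXCL9 against the mean of 28 interferon-stimulated genes in the same array, 1 point per array. The grey band is the gap from 7.60 to 8.11 that separates 28 arrays from 8. All 8 arrays to its right have TNFSF10 at 7.1 or more, while CXCL9 there ranges from 4.1 to 5.9.

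The monocyte chemokines CCL2 and CCL8 varied together. CCL2 ran from 5.1 over 5.6 to 7.9 in controls, from 5.2 over 5.55 to 7.0 at the medium dose and from 5.3 over 5.85 to 6.7 at the high dose. Its highest values belonged to control replicate 9 (7.9, S4), control replicate 11 (7.2, S5), medium-dose replicate 11 (7.0, S5) and high-dose replicate 10 (6.7, S4), all of them above the interferon gap. CCL8 was also highest in control replicates 9 (8.0) and 11 (7.8) and high-dose replicate 10 (7.6). Across 36 arrays CCL2 and CCL8 correlated at r = 0.85 (permutation p = 1e-05, adjusted p = 0.0057 over 2850 pairs of members; rho = 0.78, permutation p = 1e-05).

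CCL2 and CCL8 were the pair of largest absolute r among the 2850, so values in parts of the same arrays are a description. Their r was 0.76 without the 2 arrays farthest from the median and 0.73 among the 28 arrays below the gap. It was 0.76 within S2, 0.71 within S3 and 0.94 within S4. In the RefSeq annotation of Sscrofa11.1 the 2 genes lie on 1 chromosome with 1 protein-coding gene between them. CCL4, a macrophage chemokine of the same chromosome, correlated with CCL2 at r = 0.72 (permutation p = 1e-05, adjusted p = 0.0057; rho = 0.66, permutation p = 2e-05), at 0.63 without 2 arrays, and at 0.35 within S2, 0.46 within S3 and 0.92 within S4. In all, 44 of 2850 pairs of members passed, 43 of them positive. The median r over the pairs of members was 0.10, beside 0.004 over all pairs of probe sets. An absolute r of 0.5 or more was reached by 84 pairs of members (2.95%), beside 3.82% of all pairs of probe sets. Pairs share array-wide variation, whose part was not tested.

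Single piglets set the range of several chemokines. CXCL2, a neutrophil chemokine, lay between 3.5 and 4.4 in 33 arrays and was 6.0 in high-dose replicate 12 (S5), 5.1 in control replicate 8 (S4) and 5.0 in control replicate 6 (S3). No medium-dose piglet exceeded 4.1. CXCL9 was 5.9 in control replicate 9 and 5.7 in medium-dose replicate 10, both of S4, against a median of 4.25 over all arrays. CCL5, which attracts T cells, was 6.5 in control replicate 9 and at most 5.6 in any other array. CXCR4 reached 8.4 in high-dose replicate 2 (S1), the array least like the rest, and at most 7.4 elsewhere. That array also had the highest mean of the red cell markers (7.15), whose part was not tested. High-dose replicates 2 and 12 and control replicate 8 were among the 10 arrays without the Dap spike-in. Control replicates 6 and 9 and medium-dose replicate 10 were among the 26 with it. The part of this split in the single high values was not tested.

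Control replicate 9 carried the highest value of CCL2, CCL8, CXCL9, CCL5 and TLR2 (6.3) at the same time. It also had the highest mean of the microglia markers (8.19, against 7.84 in the next array) and of the T and NK cell markers (5.35, against 5.06), and an interferon mean of 8.40. The part of these cell type markers in its chemokine values was not tested. High-dose replicate 12 had a neutrophil marker mean of 4.43, and the arrays ranged from 4.0 to 4.60.

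**Figure D5:**
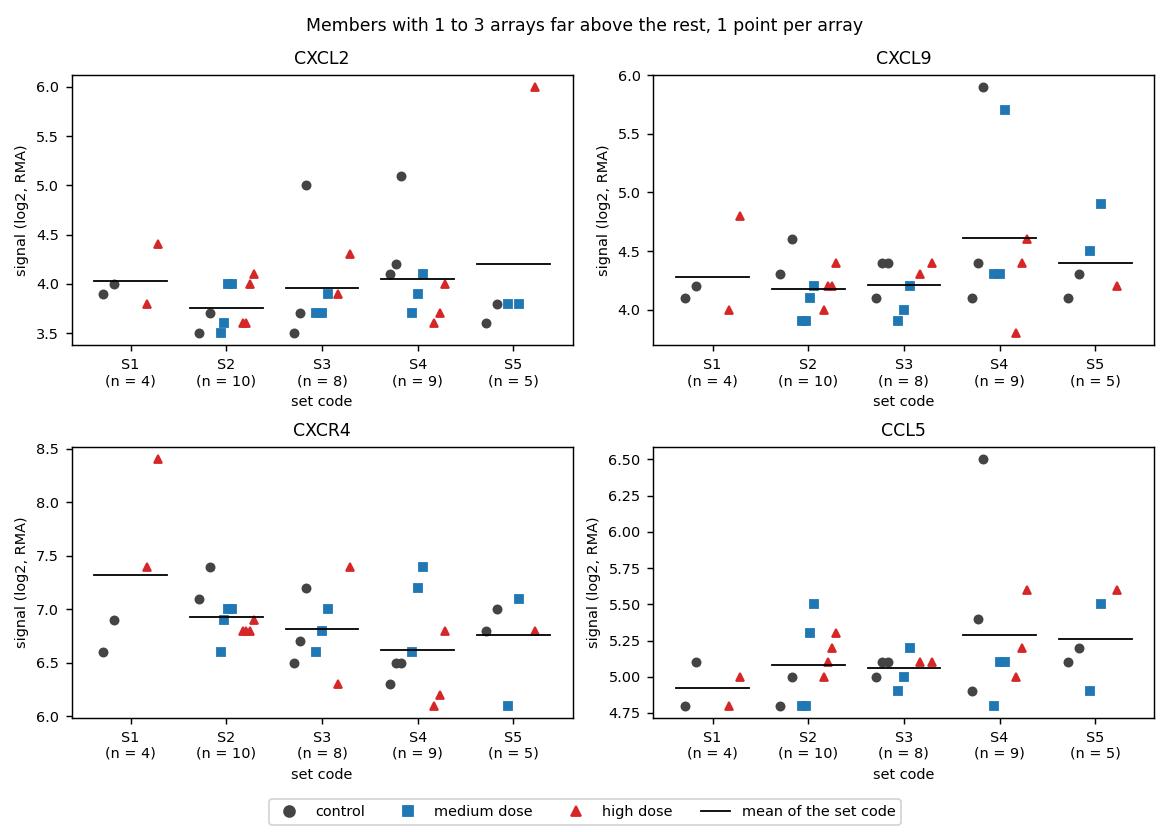
Signal (log2, RMA) of CXCL2, CXCL9, CXCR4 and CCL5 by set code, 1 point per array, with shape and colour for the feeding group and a line at the mean of each set code. CXCL2 is 6.0 in 1 high-dose array of S5, CCL5 6.5 and CXCL9 5.9 in the same control array of S4, and CXCR4 8.4 in 1 high-dose array of S1.

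Whether the effect of feeding differed between set codes was tested for each contrast. For medium dose minus control 0 of 76 members passed limma's F test over S2 to S5, beside 0% of probe sets, and 10 of 76 had an unadjusted p under 0.05 beside 6.51%. Smallest was CXCL16, a membrane-bound chemokine of macrophages (p = 0.00663, adjusted p = 0.739), with -0.57 in S4 and 0.55 in S5. For high dose minus control 0 of 76 passed beside 0.025% of probe sets, and 5 of 76 had an unadjusted p under 0.05 beside 6.48%.

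CXCL2 led that comparison (p = 5.63e-05, adjusted p = 0.156), with 2.30 in S5, where 1 high-dose piglet stands against 2 controls, and -0.70 in S4. Without that piglet, high-dose replicate 12, S5 had no high-dose array and left the test, whose adjusted p over S1 to S4 was 0.841. CXCL2 passed without control replicate 6 (adjusted p = 0.00406) and without high-dose replicate 1 (adjusted p = 0.0133). The largest difference of CXCL2 was that in S5, where 1 array stands for the high dose. The fit over S1 to S4 is another test, and what the low p of CXCL2 rested on was not tested.

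Microglia markers correlated with several members over the 36 arrays. After adjustment 11 of 76 members passed, all positive: CXCL16, CCL2, TLR6, TLR2, CCL8, TNFRSF1B, TNFSF10, CCR1, CCL4, CXCL9 and CCL5. CXCL16 was highest (r = 0.74, permutation p = 1e-05, adjusted p = 0.00114; rho = 0.51, permutation p = 0.00160), then CCL2 (r = 0.70, permutation p = 2e-05, adjusted p = 0.00152; rho = 0.48, permutation p = 0.00311) and TLR6 (r = 0.65, permutation p = 8e-05, adjusted p = 0.00456; rho = 0.46, permutation p = 0.00496). By set code r of the 3 was 0.08, 0.23 and 0.50 (S2), 0.66, 0.21 and 0.10 (S3), and 0.86, 0.89 and 0.81 (S4), the set code of control replicates 9 and 10. Without those 2 arrays, the farthest from the median, 0 of the 76 passed (15 at an unadjusted p of 0.05), and r was 0.497, 0.509 and 0.390. By Spearman's rho only TNFSF10 passed (rho = 0.57, permutation p = 4e-04, adjusted p = 0.0456). These relations pool the arrays on both sides of the interferon gap, where TNFSF10 averaged 6.00 below and 7.69 above. Relations to the microglia mean within each cluster were not tested. On residuals after group and set code 9 of 76 passed. An absolute r of 0.5 or more was reached by 11 of 76 members (14.5%) beside 1.69% of all probe sets over the 36 arrays, and by 2 of 76 members (CCL2 and TNFAIP6, 2.63%) beside 1.63% without those 2 arrays. TNFAIP6 was the dimmest member, at a mean of 2.80 and with values from 2.6 to 3.0. The level of 0.5 was chosen after the values were seen, and the shares are a description.

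Genes listed for signalling around these receptors, and other chemokine genes, also gave no call. The first list, 16 measured genes for Toll-like receptor and interleukin 1 signalling, held TRAM1, which is not the Toll-like adaptor TICAM2. The others held 6 genes for NF-kB, 16 for JAK-STAT, 7 for TNF signalling, 2 for the inflammasome and 6 further chemokine genes. Of all these genes 0 passed in any feeding comparison or across set codes. At the medium dose 0, 0, 3, 2, 1 and 2 of them had an unadjusted p under 0.05, all lower than control, beside 2.76% of all probe sets that were lower. Between high dose and control 0 of them did, beside 5.63% of all probe sets. Between high and medium dose 2 (1 higher, 1 lower), 0, 3, 0, 1 and 0 did, the JAK-STAT and inflammasome genes all higher at the high dose, beside 5.79%. Across set codes 3, 0, 3, 1, 1 and 1 did, beside 15.3%.

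CASP1, the protease that activates interleukin 1 beta and interleukin 18, had the smallest p of these lists at the medium dose, -0.47 (SE 0.13, p = 7.02e-04, adjusted p = 0.545). It was at -0.20 (SE 0.12, p = 0.121) at the high dose and differed across set codes at an adjusted p of 0.0501, just above the threshold. CASP8, the protease of death receptors, was at -0.28 (SE 0.10, p = 0.00652) and ADAM17, which sheds TNF, at -0.20 (SE 0.07, p = 0.00893). STAT5B, JAK3 and STAT3, which relay cytokine receptor signals, were at -0.19 (p = 0.00385), -0.23 (p = 0.0142) and -0.12 (p = 0.0390). AMCF-II, a porcine neutrophil chemokine, and RARRES2, the chemoattractant chemerin, were at -0.16 (p = 0.0232) and -0.22 (p = 0.0333). The median of the JAK-STAT list at the medium dose was -0.05 and that of the Toll-like list -0.01, against 0.00 over all probe sets.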

How the data were processed

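Values are log2 signals per probe set as deposited, summarised by the authors with RMA; the submitters' processing notes name Affymetrix Expression Console 1.1. They carry 1 decimal. Raw intensities were not used here, and precision is limited by how many arrays there are. Array controls (124) were left out, which left 23999 probe sets. Gene names came from GEO's platform annotation, which gave 1 symbol to 10069 probe sets; all 76 members matched RefSeq by gene ID with the same symbol. No 2 arrays were alike beyond the rest: at most 24.9% of values were equal in any of 630 pairs.

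Members and lists were chosen with earlier results of these data known. Comparisons of groups used limma 3.58.1 under R 4.3.3 (lmFit and eBayes, two-sided) on feeding group plus set code as a fixed block, with Benjamini-Hochberg over all probe sets and a threshold of 0.05. F tests covered set codes and the difference of a contrast between them. Relations used Pearson's r and Spearman's rho with 100000 two-sided resamples, or all orders for the 8 arrays above the gap, in Python 3.11.15 with numpy 2.4.6. The interferon relations were planned over all arrays and were split once the gap was seen. Pairs of members, the interferon covariate and the omission of each array were added after seeing the data. The fits were tested on simulated data. No sequences were used.

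Named genes were the 10 members of highest mean, the 10 of largest SD, up to 10 of smallest p per comparison, a list of core cytokines and receptors, the 3 of largest correlation per list mean and up to 3 genes of smallest p per pathway list. CCL4, CXCL16, TLR6 and the other members called with the microglia mean follow from the counts they belong to. Alternatives were other blocks, filters, scalings, weights, covariates, probe set rules and sets of samples.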

Additional observations from a re-analysis of the deposited data

How the results depend on the processing

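In the 3 feeding comparisons the count of members called was 0 under every alternative run. Of 1614 values of named members 1613 kept their sign, none passing. The exception was CCL8 at the medium dose, 0.018 with the interferon list mean as a covariate. These members were picked by smallest p in the same data, and many of the fits left out only 1 array. The count of kept signs is therefore a description and no test of direction. Counts of probe sets called moved from 0 to 7 (medium dose minus control, only the 2 groups compared), to 3 (the same without S1) and to 1 (high minus medium dose, array weights). Leaving out 1 array gave 0 to 1 probe sets for medium dose minus control and for high minus medium dose, and 0 for high dose minus control. Across set codes the 405 probe sets became 694 with array weights, 249 with the interferon mean as a covariate, 39 without S1, 162 without S3, 34 without S4, and 127 to 745 without 1 array. The 1 member called became 4 with array weights, 2 without S5, 0 with either covariate or without S1, S2, S3 or S4, and 0 to 3 without 1 array. For high dose minus control between set codes the 6 probe sets became 0 to 382 and the members 0 to 1 without 1 array. Members related to the interferon mean below the gap fell from 3 to 1 by Spearman's rho and to 1 without the 2 farthest arrays, and those related to the microglia mean from 11 to 1 and to 0. The cause of these moves was not tested. The means of TNFAIP8L2, TNFRSF12A and CXCL12 moved to 6.22, 5.75 and 6.19 when all probe sets of a gene were averaged.

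The replicate numbers of the titles were also tried as a replicate block, instead of set codes, which called 0 members and 0 probe sets in each feeding comparison (TNFSF10 at the medium dose: -0.65, adjusted p = 0.603, and at least 0.224 over its alternatives). The numbers share no stated origin. The deviations of same-numbered samples correlated over 0.1 in 2 of 12 pairs of control and medium dose. That count was 4 of 12 for control and high dose and 2 of 12 for medium and high dose. Same-numbered samples were therefore not taken as pairs. They shared a set code in 10, 8 and 6 of the 12 pairs, in that order, so the replicate block overlaps with the set code.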
